A study of Mus musculus with 6 samples.

Results

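Cholesterol genes were followed in RNA sequencing libraries of mouse brown adipose tissue with and without Bscl2, which encodes seipin, an endoplasmic reticulum protein of lipid droplet formation. The set covered cholesterol synthesis, its control, uptake, intracellular transport, efflux and esterification. It was a list of 30 gene symbols, chosen by function with earlier results of these data known. Of the 30 symbols, 29 were among the 12966 genes of the deposited table, and Hmgcs1 is not analysed here. The animals were male C57BL/6J mice 10 weeks of age. Control mice carried floxed Bscl2 alone (Ctrl, 3 libraries), and BKO mice carried the same floxed alleles with Ucp1Cre (BKO, 3 libraries). The Ucp1 promoter drives Cre in brown adipocytes, so other cells of the tissue keep the gene. Since Cre was present in BKO alone, its own effect and that of losing Bscl2 cannot be told apart. Nothing in the labels ties a library to its own animal, and p-values therefore measure the spread between these libraries, which may be technical.

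Cells build cholesterol from acetyl-CoA through mevalonate, squalene and lanosterol, and nearly every enzyme of the route is a target of the transcription factor SREBP-2, the product of Srebf2. When membranes of the endoplasmic reticulum are rich in sterol, INSIG proteins hold the SREBP escort SCAP there. When sterol is low, SCAP carries SREBP to the Golgi, where it is cut and its active part goes to the nucleus. Excess cholesterol is esterified by the product of Soat1 or exported by ABCA1 and ABCG1, whose genes are targets of the liver X receptors. Adipocytes hold much of their cholesterol unesterified, in the lipid droplet and its surface.

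Most promoters of the synthesis enzymes held a short element that did not enter the choice of genes. SREBPs activate transcription together with NF-Y, which binds the CCAAT box, and with Sp1, which binds the GC box. In the 250 bases before the start site in the RefSeq table (GRCm38.p6, another build than the authors' NCBIM37), CCAAT was found on either strand for 13 of the 14 synthesis enzymes that the table holds. The share was 40.4% of the 7766 tested genes with a window in that table, and 33.8% of all 32851 windows. GGGCGG was found for 13 of the same 14 enzymes and for 65.8% of tested genes. TCACNCCAC, a strict form of the sterol regulatory element, was found in 0 of the members' windows and in 1.25% of tested genes, which says only that these letters were not in this stretch. Genes with several start sites were counted once, and the searches on both strands counted overlapping matches. The windows of 6 genes follow as examples, with CCAAT in capitals (ATTGG where it lies on the other strand). The matches were not set against the expression values.
Sc5d, chr9:42264301-42264550, minus strand: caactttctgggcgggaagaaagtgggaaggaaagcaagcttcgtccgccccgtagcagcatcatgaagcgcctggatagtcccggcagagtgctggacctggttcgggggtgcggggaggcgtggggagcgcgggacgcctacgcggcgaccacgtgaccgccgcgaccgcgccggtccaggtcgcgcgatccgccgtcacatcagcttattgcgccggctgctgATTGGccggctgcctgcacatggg
Tm7sf2, chr19:6067851-6068100, minus strand: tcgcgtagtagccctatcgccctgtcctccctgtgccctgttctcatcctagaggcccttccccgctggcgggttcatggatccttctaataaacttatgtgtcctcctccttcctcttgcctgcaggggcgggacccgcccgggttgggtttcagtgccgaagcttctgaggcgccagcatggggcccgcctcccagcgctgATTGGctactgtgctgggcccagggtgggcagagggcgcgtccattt
Insig1, chr5:28071162-28071411, plus strand: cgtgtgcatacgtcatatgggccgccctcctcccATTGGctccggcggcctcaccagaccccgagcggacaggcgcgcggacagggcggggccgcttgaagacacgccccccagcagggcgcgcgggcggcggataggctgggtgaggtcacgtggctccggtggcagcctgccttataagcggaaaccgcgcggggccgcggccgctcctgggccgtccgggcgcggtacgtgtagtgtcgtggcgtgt
Lrp1, chr10:127621149-127621398, minus strand: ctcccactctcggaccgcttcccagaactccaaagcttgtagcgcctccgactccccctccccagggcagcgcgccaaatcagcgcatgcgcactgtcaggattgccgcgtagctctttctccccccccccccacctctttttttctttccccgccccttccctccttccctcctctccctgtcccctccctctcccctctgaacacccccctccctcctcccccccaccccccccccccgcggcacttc
Idi1, chr13:8885356-8885605, plus strand: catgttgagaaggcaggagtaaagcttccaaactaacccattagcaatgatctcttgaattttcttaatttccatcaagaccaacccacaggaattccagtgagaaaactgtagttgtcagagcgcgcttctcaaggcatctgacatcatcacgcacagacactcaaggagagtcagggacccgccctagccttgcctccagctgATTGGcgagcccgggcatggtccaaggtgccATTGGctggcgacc
Nsdhl, chrX:72918271-72918520, plus strand: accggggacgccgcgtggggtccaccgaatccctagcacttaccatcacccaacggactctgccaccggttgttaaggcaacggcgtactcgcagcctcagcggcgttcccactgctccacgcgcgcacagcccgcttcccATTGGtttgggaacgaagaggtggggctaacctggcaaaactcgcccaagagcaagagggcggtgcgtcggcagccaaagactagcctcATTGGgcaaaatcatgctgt

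The windows of Sc5d and Tm7sf2 each held 1 CCAAT, beginning 24 and 47 bases before the start site. Those of Idi1 and Nsdhl each held 2, the nearer ones 14 and 20 bases before it. For Sc5d and Nsdhl the bases just after the start site were not found in an annotated transcript of the gene, so their distances are less sure. In Insig1 the single CCAAT lay 216 bases away, and Lrp1 had 0. No binding was measured in this study, so a match is a stretch of letters and not a shown site.

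Values are FPKM, fragments scaled to transcript length and library size, so levels can be compared between genes. Bscl2 itself, the deleted gene, had 116, 104 and 106 FPKM in Ctrl against 16.5, 16.9 and 18.9 FPKM in the BKO libraries, as the labels give the groups. On the log2(FPKM + 1) scale Bscl2 fell by 2.57 (limma with Benjamini-Hochberg adjusted p = 3.95e-05, exact two-sided permutation p = 0.1, the smallest that 3 against 3 libraries allow). Brown adipocyte markers were abundant in all 6 libraries, with Ucp1 between 2484 and 3498 FPKM. BKO-3 stood apart, with an FPKM sum of 2808870 against 1119230 to 1617960 in the others. Its highest gene, a mitochondrial tRNA, held 30.7% of that sum. The median ratio of BKO-3 to the geometric mean of all 6 libraries was 1.01. BKO-3 also had no value between 0 and 0.486 FPKM, whereas the others had 341 to 632 each, so a gene under that level in BKO-3 may not be listed. Results that rest on BKO-3 are given with and without it. How many reads each library held is unknown. In tissue RNA, fewer cells of a type and less RNA per cell cannot be told apart.

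**Figure D1:**
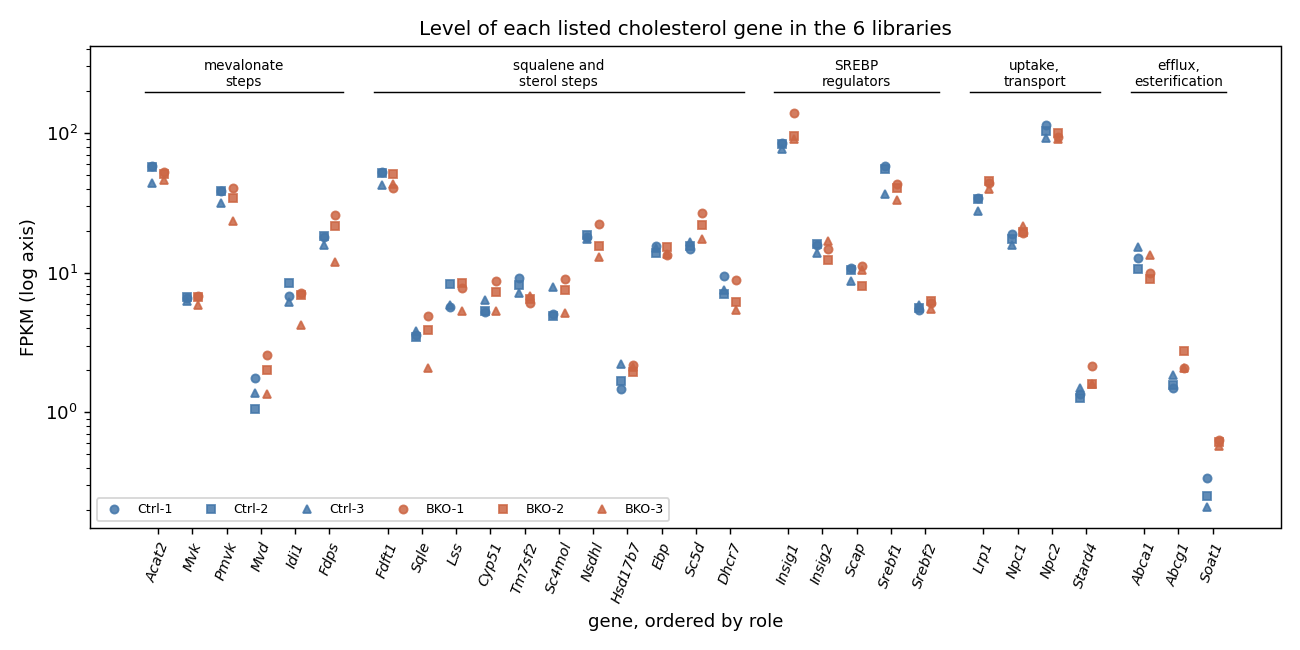
Level of each of the 29 listed genes on a log FPKM axis, with genes grouped by role along the horizontal axis. Blue symbols are the 3 Ctrl and orange symbols the 3 BKO libraries; Insig1 and Npc2 lie near 100 FPKM and Soat1 lies below 1 FPKM in every library.

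No cholesterol gene passed the test over all genes. Of the 29 listed genes, 28 had a mean of at least 1 FPKM and were tested, and 0 passed limma at an adjusted p of 0.05, against 0.167% of the 11397 genes tested. At an unadjusted p below 0.05 there were 6 members, of which 5 were higher in BKO (Sc5d, Insig1, Lrp1, Npc1 and Abcg1) and 1 was lower (Tm7sf2). The background share at that level was 10.2%, with 6.63% of all genes higher and 3.52% lower. That count of 6 was 2 without Ctrl-2, 3 without Ctrl-1 and 9 without BKO-3. The share over all genes at that p was 14.0% without BKO-3 and was not computed without Ctrl-2 or Ctrl-1. Whole-table counts moved too. Genes higher at an adjusted p of 0.05 numbered 18 with all libraries, 8 without Ctrl-2, 16 without Ctrl-1 and 30 without BKO-3. Whether the member count changed beyond the whole table was not tested. The smallest adjusted p was 0.248, for Lrp1. A log2 difference above 0 was found for 13 of 28, near the 51.6% of all genes, and the median was -0.01 (0.09 without BKO-3) against 0.01 over all genes tested.

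The 2 groups of libraries did not overlap in 7 tested members, 6 of them higher in BKO and 1 lower. Among all genes tested, 9.06% were separated in this way with higher values in BKO and 6.82% with lower values. With BKO-3 left out, a choice made after seeing the data, 11 members were separated with higher and 2 with lower values, where the background was 17.3% and 15.4%. After quantile normalization there were 4 higher and 1 lower. The share over all genes was not computed on that scale, so this count has no background. Without BKO-3, those 9 members had an unadjusted p below 0.05 against a background of 14.0%, and 0 passed the adjusted test, where the background was 0.281%.

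**Figure D2:**
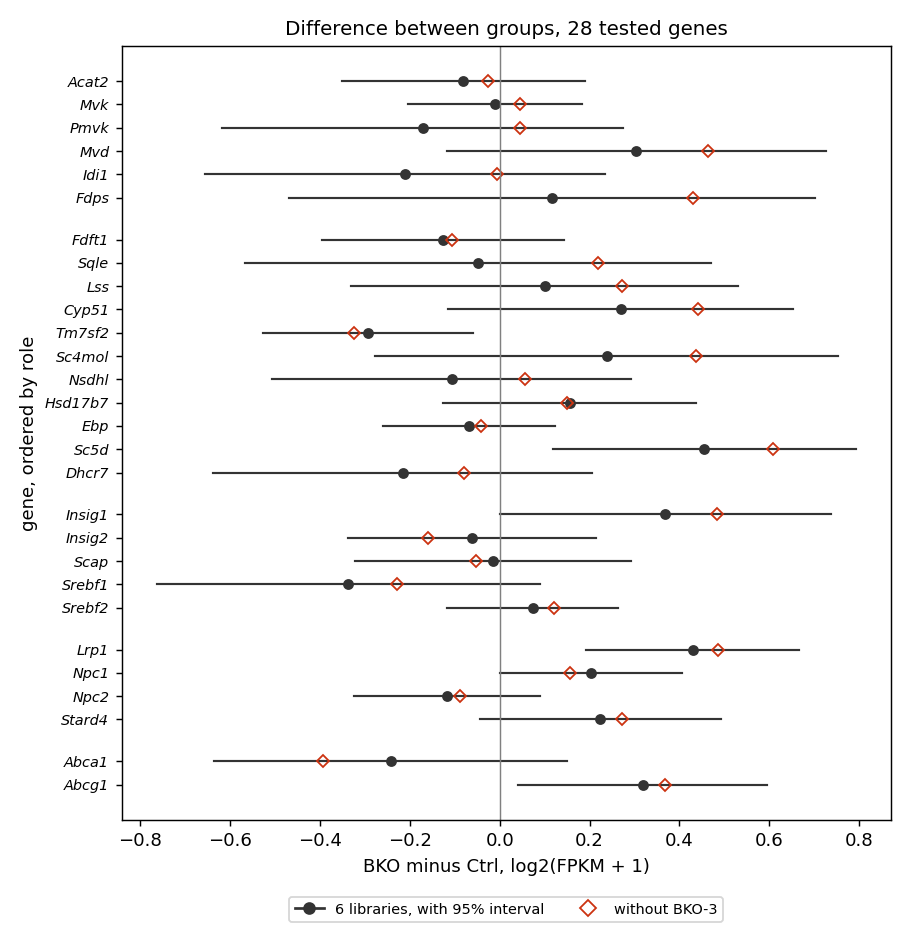
Difference between BKO and Ctrl on the log2(FPKM + 1) scale for the 28 tested genes, as points with 95% limma intervals, with open diamonds for the fit without BKO-3. The intervals of Sc5d, Insig1, Lrp1, Npc1 and Abcg1 lie above 0 and that of Tm7sf2 below 0, and the diamonds of Fdps, Sqle and Pmvk lie well to the right of their points.

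Among the mevalonate enzymes, libraries of one genotype differed more than the genotypes did. Acat2 joins acetyl-CoA units in the cytosol and is not the esterifying enzyme that shares this abbreviation. It stood at 57.8, 56.9 and 44.1 FPKM in Ctrl and at 52.3, 50.8 and 45.9 FPKM in BKO. Mvk, mevalonate kinase, was the steadiest of these enzymes, between 6.25 and 6.73 FPKM in Ctrl and between 5.91 and 6.81 FPKM in BKO. Its log2 difference was -0.01 with a 95% interval from -0.21 to 0.18.

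Pmvk, which phosphorylates mevalonate a further time, stood at 38.3, 38.7 and 31.7 FPKM in Ctrl and at 40.6, 34.2 and 23.4 FPKM in BKO. The BKO values thus reached both above and below the Ctrl range. Mvd, the decarboxylase that makes isopentenyl diphosphate, stood at 1.77, 1.06 and 1.38 FPKM in Ctrl and at 2.58, 2.02 and 1.36 FPKM in BKO. The first 2 BKO libraries lay above every Ctrl library and BKO-3 lay within their range.

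Idi1, the isomerase of isopentenyl diphosphate, stood at 6.76, 8.49 and 6.15 FPKM in Ctrl and at 7.18, 6.91 and 4.25 FPKM in BKO. Fdps, farnesyl diphosphate synthase, stood at 18.1, 18.4 and 15.8 FPKM in Ctrl and at 26.0, 21.7 and 11.9 FPKM in BKO. Its BKO libraries spanned 2.18-fold and its Ctrl libraries 1.16-fold. The log2 difference of Fdps was 0.12 (SE 0.250) with all libraries and 0.43 (SE 0.110, limma with Benjamini-Hochberg adjusted p = 0.221) without BKO-3. It was -0.10 without BKO-1, 0.02 without BKO-2 and 0.05 without Ctrl-3.

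The steps from squalene onward held the enzyme with the largest log2 difference among the 28, Sc5d, and the single separated member that was lower in BKO, Tm7sf2. Sc5d, the desaturase that sets the ring double bond late in the route, stood at 14.7, 15.6 and 16.5 FPKM in Ctrl and at 26.7, 22.1 and 17.4 FPKM in BKO. All BKO libraries lay above all Ctrl libraries, BKO-3 by the smallest margin. The log2 difference was 0.46 (SE 0.144, limma with Benjamini-Hochberg adjusted p = 0.362), and 0.61 (SE 0.104, adjusted p = 0.114) without BKO-3. Tm7sf2, a sterol reductase of the steps after lanosterol, stood at 9.13, 8.21 and 7.13 FPKM in Ctrl and at 6.10, 6.47 and 6.77 FPKM in BKO. Its log2 difference was -0.29 (SE 0.0998, adjusted p = 0.405), and here BKO-3 was the BKO library nearest to Ctrl.

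Fdft1, squalene synthase, was the most abundant enzyme after Acat2, at 49.1 ± 5.53 FPKM in Ctrl (SD, n = 3) and 44.9 ± 5.40 FPKM in BKO (SD, n = 3). Sqle, squalene monooxygenase and a control point of the route, stood at 3.57, 3.49 and 3.83 FPKM in Ctrl and at 4.91, 3.92 and 2.09 FPKM in BKO. Its Ctrl libraries lay close together and its BKO libraries spanned 2.35-fold, the widest BKO span of the 29 genes. The log2 difference of Sqle changed sign, from -0.05 with all libraries to 0.22 without BKO-3.

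Lss closes squalene epoxide into lanosterol and stood at 5.68, 8.26 and 5.88 FPKM in Ctrl and at 7.77, 8.42 and 5.35 FPKM in BKO. Cyp51, lanosterol demethylase, stood at 5.26, 5.32 and 6.42 FPKM in Ctrl and at 8.78, 7.33 and 5.32 FPKM in BKO. BKO-1 and BKO-2 lay above every Ctrl library for Cyp51 and BKO-3 did not. Sc4mol (Msmo1), the oxidase that starts removal of the ring methyl groups, showed a like spread in both groups, at 5.06, 4.91 and 7.89 FPKM in Ctrl and at 8.95, 7.58 and 5.11 FPKM in BKO.

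Nsdhl, the decarboxylating dehydrogenase of the same step, stood at 17.9, 18.5 and 17.3 FPKM in Ctrl and at 22.2, 15.6 and 13.0 FPKM in BKO. Hsd17b7, the ketoreductase that completes it, averaged 1.79 ± 0.382 FPKM in Ctrl, with 2.09 ± 0.122 FPKM in BKO (SD, n = 3 each). Ebp, a sterol isomerase, averaged 14.8 ± 0.859 FPKM in Ctrl, with 14.1 ± 1.04 FPKM in BKO. The values of both genes overlapped between the groups. Dhcr7, the reductase that yields cholesterol, stood at 9.53, 7.02 and 7.48 FPKM in Ctrl and at 8.93, 6.21 and 5.38 FPKM in BKO.

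A pattern shared by most of the 17 listed synthesis enzymes lay between BKO libraries. BKO-3 held the lowest of the 6 values for 8 of the 17 (Mvk, Pmvk, Idi1, Fdps, Sqle, Lss, Nsdhl and Dhcr7), where BKO-3 was the lowest for 15.1% of all genes tested. BKO-1 held the highest value for 9 of the 17, where the share over all genes was 14.3%. Within BKO, BKO-1 was highest and BKO-3 lowest for 13 enzymes each, against 26.9% and 36.2% of all genes. Among the 11 tested members outside synthesis, BKO-1 was the highest BKO library for 4 and BKO-3 the lowest for 7. These counts describe 3 libraries and carry no test.

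Set against the mean of the Ctrl libraries, the median difference of the 17 enzymes was 0.20 for BKO-1, 0.06 for BKO-2 and -0.19 for BKO-3 on the log2(FPKM + 1) scale. Over all genes tested the same medians were -0.01, 0.02 and 0.02. In BKO-3, 15 of 17 enzymes were under the Ctrl mean, Sc5d and Hsd17b7 being the other two, while in BKO-1 there were 13 above it. Ctrl-3 was under that mean for 11 of 17, among them all 6 mevalonate enzymes, and for 6758 of the 11397 genes tested. The median SD of an enzyme was 0.159 in Ctrl and 0.304 in BKO, against 0.109 and 0.120 over all genes, and the SD was larger in BKO for 14 of 17 enzymes and for 55.3% of all genes. The median log2 difference between the genotypes was -0.05 with all libraries and 0.06 without BKO-3, so its sign rested on that library.

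**Figure D3:**
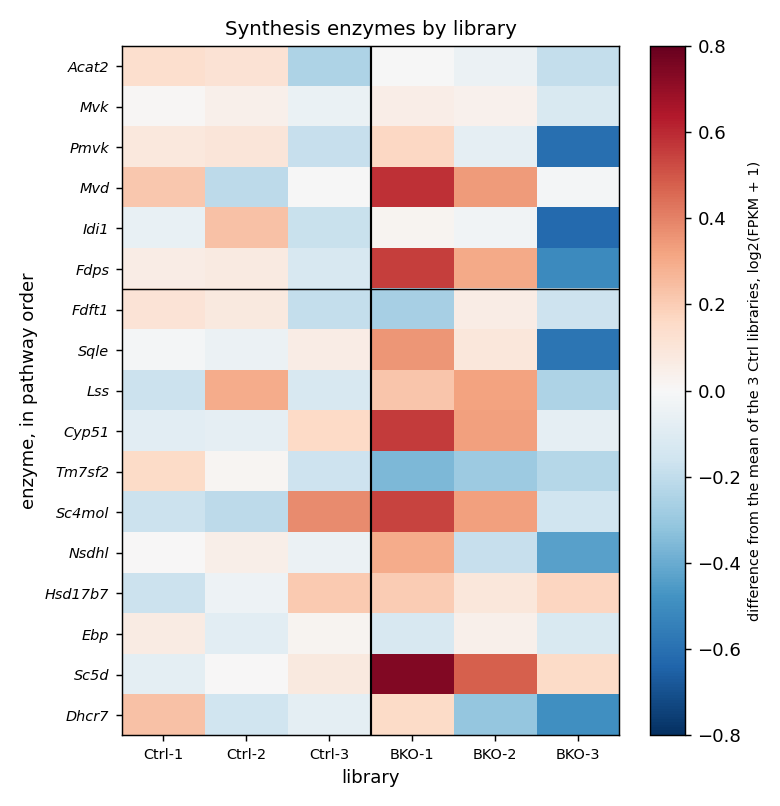
Difference of each synthesis enzyme (rows, in pathway order) from the mean of the 3 Ctrl libraries in each library (columns), on the log2(FPKM + 1) scale, with red above and blue below that mean. The BKO-3 column is blue for 15 of 17 enzymes and the BKO-1 column is red for 13.

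Skeletal muscle, brown adipocyte and endothelial markers had other orders, with BKO-1 not the highest BKO library. The mean log2(FPKM + 1) level of 10 muscle markers was 4.20 for BKO-1, 5.32 for BKO-2 and 3.91 for BKO-3. In Ctrl it was 3.44 to 5.87. Macrophage markers had the order of the enzymes, at 3.145 for BKO-1, 3.021 for BKO-2 and 2.978 for BKO-3. So did fibroblast and preadipocyte markers, at 4.415, 4.097 and 4.053. Whether cell content has a part in the enzyme order was not tested. Most genes of a lipogenic list tied to SREBP-1 were also low in BKO-3. It held enzymes of fatty acid synthesis and also Mlxipl, Gpam, Fads1 and Fads2. The median difference from the Ctrl mean over its 13 tested genes was 0.01 for BKO-1, -0.32 for BKO-2 and -0.85 for BKO-3. BKO-3 was under the Ctrl mean for 11 of them, Mlxipl and Gpam being above it, and held the lowest of the 6 values for 9. By limma over all genes 0 of the 13 passed, 5 were lower at an unadjusted p below 0.05 (3.52% of all genes were), and their median log2 difference between genotypes was -0.27 with all libraries and -0.11 without BKO-3.

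Of the control genes, Insig1 was the most abundant and its groups did not overlap. Insig1, the sterol-sensing anchor that SREBPs themselves induce, stood at 85.3, 83.7 and 77.4 FPKM in Ctrl and at 139, 95.4 and 90.4 FPKM in BKO. BKO-1 stood far above the other two BKO libraries, which were nearer to Ctrl. The log2 difference was 0.37 (SE 0.157, 95% interval 0.00 to 0.74, limma with Benjamini-Hochberg adjusted p = 0.490), and without BKO-1 it was 0.18. Insig2, its relative, stood at 15.9, 16.1 and 13.9 FPKM in Ctrl and at 14.8, 12.4 and 16.9 FPKM in BKO. Its groups overlapped, and its level was below that of Insig1 in all 6 libraries.

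Scap, the escort of SREBP, averaged 9.97 ± 1.07 FPKM in Ctrl, with 9.91 ± 1.63 FPKM in BKO (SD, n = 3 each). Srebf2, which encodes SREBP-2, stood at 5.42, 5.57 and 5.83 FPKM in Ctrl and at 6.05, 6.31 and 5.51 FPKM in BKO. Its log2 difference was 0.07 with a 95% interval from -0.12 to 0.26. Srebf1, which encodes both SREBP-1 proteins, was several times more abundant, at 58.4, 55.2 and 36.8 FPKM in Ctrl and at 43.2, 40.4 and 33.2 FPKM in BKO. Ctrl-3 lay below BKO-1 and BKO-2, so the groups overlapped, and the log2 difference was -0.34 (SE 0.182, adjusted p = 0.587). It was -0.54 without Ctrl-3 and -0.22 without Ctrl-1. The table gives 1 value per gene, so the SREBP-1a and SREBP-1c transcripts were not separated.

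Genes of uptake and intracellular transport had a median log2 difference of 0.21 over only 4 members, against 0.01 over all genes tested. Of the 4, 3 were separated between the groups with higher values in BKO, where 9.06% of all genes were. Lrp1, a large endocytic receptor that takes up lipoprotein remnants, stood at 34.4, 33.6 and 27.7 FPKM in Ctrl and at 44.2, 45.6 and 39.7 FPKM in BKO. Its lowest BKO library lay above its highest Ctrl library, and the ratio of means was 1.35. The log2 difference was 0.43 (SE 0.101, limma with Benjamini-Hochberg adjusted p = 0.248) and lay between 0.33 and 0.49 when any 1 library was left out. Within BKO, Lrp1 varied by 1.15-fold.

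Npc1 and Npc2 together move cholesterol out of lysosomes. Npc1, the membrane protein of the pair, stood at 18.9, 17.4 and 15.8 FPKM in Ctrl and at 19.3, 19.6 and 21.5 FPKM in BKO, so the groups were separated by a narrow margin. Npc2, the soluble partner, stood at 113, 103 and 92.6 FPKM in Ctrl and at 93.3, 99.5 and 90.7 FPKM in BKO. The partners thus had log2 differences of opposite sign, 0.20 and -0.12, neither past the test (adjusted p = 0.490 and 0.700 in limma with Benjamini-Hochberg adjustment). Stard4, a cytosolic sterol carrier, stood at 1.37, 1.28 and 1.49 FPKM in Ctrl and at 2.16, 1.61 and 1.60 FPKM in BKO. BKO-1 was again its highest library.

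Of the 2 exporters, one was lower and the other higher in mean in BKO. Abca1, which loads cholesterol onto apolipoprotein A-I, stood at 12.7, 10.6 and 15.3 FPKM in Ctrl and at 9.94, 9.03 and 13.4 FPKM in BKO. Its groups overlapped through BKO-3 alone, the other two BKO libraries lying below every Ctrl library. Abcg1, which passes cholesterol to mature high density lipoprotein, stood at 1.50, 1.57 and 1.86 FPKM in Ctrl and at 2.09, 2.76 and 2.07 FPKM in BKO, with no overlap. Their log2 differences were -0.24 (SE 0.168) and 0.32 (SE 0.118), with adjusted p = 0.678 and 0.432 in limma with Benjamini-Hochberg adjustment. For Abca1 the difference was -0.39 without BKO-3 (adjusted p = 0.339), -0.14 without BKO-2 and -0.12 without Ctrl-3. Soat1, which esterifies cholesterol for storage, was below 1 FPKM throughout and was left out of the test. It stood at 0.338, 0.251 and 0.212 FPKM in Ctrl and at 0.633, 0.614 and 0.575 FPKM in BKO, a ratio of means of 2.28. With no filter on low values its log2 difference was 0.34 (SE 0.0842, limma with Benjamini-Hochberg adjusted p = 0.246). Its BKO-3 value lay just above 0.486 FPKM, the smallest value above 0 listed for that library, and its Ctrl values all lay below that level. A gene as low in BKO-3 as Soat1 was in Ctrl may not be listed. The listing may thus have favoured a higher BKO value, so neither the ratio nor the test can decide the direction for Soat1.

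**Figure D4:**
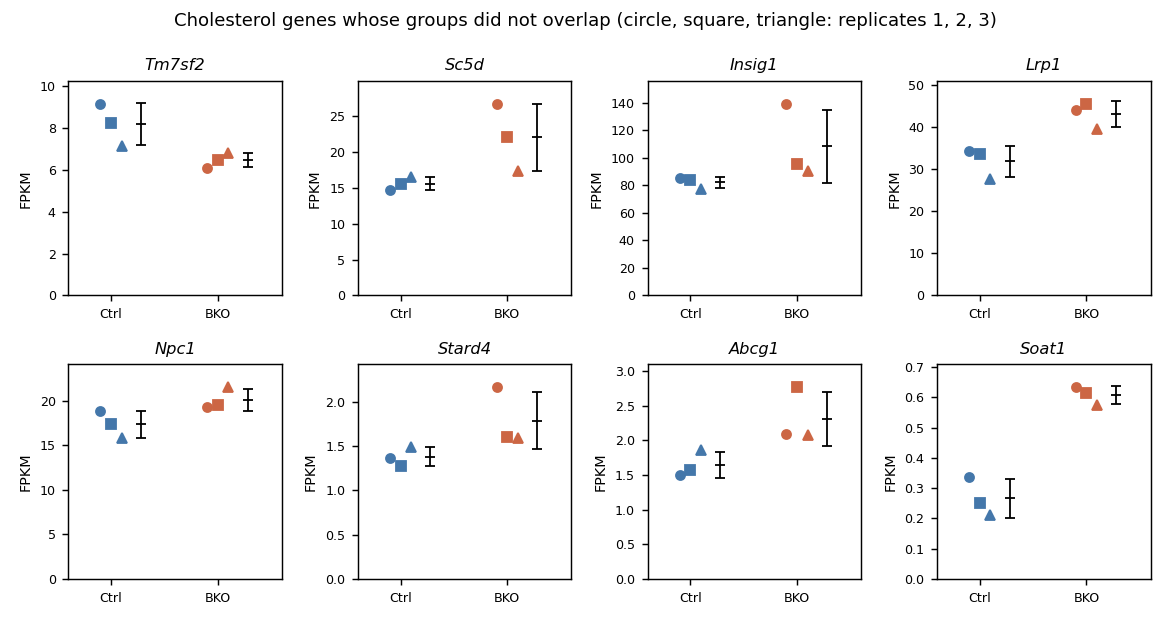
FPKM of the 8 listed genes whose Ctrl and BKO libraries did not overlap, each on its own axis from 0, with symbols for libraries and bars for the mean ± SD (n = 3). Tm7sf2 is lower in BKO and the other genes are higher, though Soat1 may be listed only because it was high enough in BKO-3. BKO-3 is the lowest BKO library for Sc5d, Insig1, Lrp1, Stard4, Abcg1 and Soat1 and the highest for Npc1 and Tm7sf2.

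Lrp1, Abcg1, Npc1, Soat1, Abca1 and Npc2 are also expressed by macrophages, and macrophage markers differed between the groups. Abca1 and Npc2 overlapped between the groups, with log2 differences of -0.24 and -0.12, whereas the others were separated with higher values in BKO. Of 18 tested markers, 18 had a positive log2 difference, with a median of 0.92, where 51.6% of all genes did. By limma over all genes 5 passed, against 0.167% of all genes, and without BKO-3 there were 2, against 0.281%. Their mean log2(FPKM + 1) level was 1.90 to 2.41 in Ctrl and 2.98 to 3.14 in BKO, and none was listed at 0 in any library. Lyz2, the most abundant of them, stood between 20.0 and 30.9 FPKM in Ctrl and between 78.0 and 96.3 FPKM in BKO. The fibroblast and preadipocyte list had a median of 0.41 over 9 genes, with a mean level of 3.73 to 4.05 in Ctrl and 4.05 to 4.42 in BKO, and 0 members past the adjusted test (3 were higher at an unadjusted p below 0.05, against 6.63% of all genes). The part of these cells in the values of Lrp1, Abcg1, Npc1, Soat1, Abca1 and Npc2 was not tested. Endothelial markers, with a median of -0.01 over 10 genes, and brown adipocyte markers, with a median of -0.00 over 12, overlapped between the groups in mean level.

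A wider list of 40 genes of cholesterol handling held sterol sensing, receptor, lysosomal, oxysterol and transfer proteins outside the members. Of its 35 tested genes, 0 passed limma over all genes, 6 were lower and 0 higher at an unadjusted p below 0.05, and 8 were separated with lower and 3 with higher values in BKO. The shares over all genes were 3.52% lower and 6.63% higher at that p, and 6.82% separated with lower and 9.06% with higher values. The median log2 difference was -0.06, and -0.09 without BKO-3. Sort1, a sorting receptor for lipoproteins and enzymes, stood at 41.6, 39.8 and 36.1 FPKM in Ctrl and at 28.8, 28.2 and 34.2 FPKM in BKO, with adjusted p = 0.287 in limma with Benjamini-Hochberg adjustment. Lpcat3, a phospholipid acyltransferase and target of the liver X receptors, stood at 38.8, 35.5 and 33.5 FPKM in Ctrl and at 26.8, 28.6 and 31.4 FPKM in BKO (adjusted p = 0.309).

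Erlin2, an endoplasmic reticulum protein that acts with INSIG in sterol-dependent degradation, stood at 18.9, 17.7 and 16.4 FPKM in Ctrl and at 14.9, 14.6 and 14.6 FPKM in BKO. Gramd1b, which carries cholesterol from the plasma membrane to the endoplasmic reticulum, stood at 8.22, 6.25 and 9.03 FPKM in Ctrl and at 2.48, 4.98 and 6.08 FPKM in BKO. Its log2 difference of -0.73 (SE 0.261, adjusted p = 0.416) was the lowest of the 35. The groups of both genes did not overlap. The 2 most abundant genes of the list were Cav1, the caveolar coat protein, between 338 and 381 FPKM in Ctrl and between 290 and 368 FPKM in BKO, and Por, the electron donor of Cyp51 and Sqle. Por stood at 99.2, 93.0 and 83.4 FPKM in Ctrl and at 78.5, 79.3 and 79.0 FPKM in BKO.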

How the data were processed

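The 6 libraries were built with a TruSeq kit from Trizol-extracted tissue RNA, per the labels' protocols. CASAVA 1.8, TopHat2 2.0.12, Cufflinks 2.2.1 and build NCBIM37 are named by the submitters' processing notes, and the settings and gene annotation were not given in the sources used here. What the authors deposited is FPKM, scaled by them to transcript length and library size; it is not a count. The table's columns were matched to samples through the descriptions in the labels, where Ctrl libraries are called MT and BKO libraries WT.

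On the log2(FPKM + 1) scale, every gene averaging 1 FPKM or more over the libraries was tested with limma 3.58.1 in R 4.3.3 (intensity trend, no covariate, Benjamini-Hochberg adjustment over all 11397 genes at 0.05). The steps were run on simulated data with changes larger than any member difference. That run does not show whether changes as small as those of the members would be detected. Alternatives changed the pseudocount, the filter, the scaling, the variance model or the covariates, or left out 1 library at a time. Separated or non-overlapping means that the lowest value of one group lay above the highest of the other. Members and gene lists were chosen with earlier results of these data known. All listed members are named, with Bscl2, the 4 smallest p-values and the 2 most abundant genes of the wider list, and the leading markers. No coordinates of the authors' build are printed.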

Additional observations from a re-analysis of the deposited data

How the results depend on the processing

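In the 15 other fits run, 0 members passed the adjusted test, with a smallest adjusted p of 0.0944 (Lrp1 with array weights). Members at an unadjusted p below 0.05 numbered 2 (without Ctrl-2) to 11 (with array weights). The share over all genes at that p was 10.2% in the main fit and 14.0% without BKO-3. It was not computed for the remaining fits, so the range may follow the whole table. Over the whole table, 18 genes were higher and 1 was lower. Higher genes numbered 11 with no filter, 9 at a mean of at least 5 FPKM, 48 with array weights, 8 with the muscle covariate and 5 to 30 with 1 library left out (30 when it was BKO-3, 11 for Ctrl-3 or BKO-2, 8 for Ctrl-2, 5 for BKO-1). Lower genes numbered 6 with array weights, 2 with the replicate block and 1 to 3 with 1 library left out (3 without Ctrl-1, 2 without Ctrl-3, BKO-2 or BKO-3). The replicate block called 23 higher genes and 0 members; same-numbered libraries share only a number, and their deviations from group means correlated at 0.20, -0.10 and -0.10. The count of separated members went from 6 to 11 higher and from 1 to 2 lower without BKO-3, which was tried after seeing the data. The shares over all genes went from 9.06% to 17.3% higher and from 6.82% to 15.4% lower.

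Of 28 tested members, 20 kept the sign of their log2 difference in every fit that included them; Mvd, Sqle, Hsd17b7, Stard4 and Abcg1 were not in the fit at a mean of at least 5 FPKM. With 1 library left out, Mvk ranged from -0.0437 to 0.0443, Pmvk from -0.34 to 0.046, Fdps from -0.10 to 0.43, Sqle from -0.25 to 0.22, Lss from -0.0113 to 0.27, Nsdhl from -0.31 to 0.0563, Insig2 from -0.16 to 0.0468 and Scap from -0.10 to 0.11. Sqle was 0.10 with array weights. The median over the synthesis enzymes ranged from -0.08 to -0.01 in the fits with 6 libraries and was 0.06 without BKO-3. The cause of these shifts was not tested. Depth is unknown, and 3 libraries a group limit the precision, as the intervals show.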
